A study of Homo sapiens with 30 samples.

Results

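A set of 9 genes that were lower after induction of the transcription factor MEF2C in LOUCY cells was followed over all 30 arrays of the series. They are ST18, MMRN1, RAB27B, LGALS12, CNTNAP4, ANXA1, EPAS1, ACSL6 and ANGPT1, 9 of the 19775 genes that the arrays measure through a probe set carrying a single gene symbol. They were chosen by their measured fall with MEF2C, so that fall is given below as a description and without a test. Among all 19775 genes ranked by the mean difference between 9 arrays with and 9 arrays without MEF2C induction, 8 of the 9 members lay within the 14 largest falls. ANGPT1 was 89th in that ranking, but 3rd in the line that carried MEF2C together with activated NOTCH1, where ACSL6 was 4th. For those 2 genes the values of that line are therefore also given without a test.

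LOUCY is an established cell line of early T-cell precursor acute lymphoblastic leukemia, which already expresses its own MEF2C. The MEF2C line was a bulk population transduced with lentivirus and sorted, in which doxycycline (dox) switches on the construct. The MEF2C line was profiled with and without dox in 3 cultures: medium, coculture with OP9-GFP cells and coculture with OP9-DL1 cells. OP9 cells are stroma from mouse bone marrow, to which OP9-DL1 adds the Notch ligand Delta-like 1 on the surface. The MEF2C-ICN line carries MEF2C together with ICN, the intracellular and constitutively active part of NOTCH1, and the ICN line carries ICN alone. Both were profiled in medium, with and without overexpression, which is called with and without dox here as well. The methods do not describe how these lines with ICN were made or induced. Their source labels do not name dox, so its use there is assumed. Each of the 10 groups had 3 arrays. No untransduced cells given dox were among the arrays, so an effect of dox itself and of the construct cannot be told apart within 1 line. Whether the 3 arrays of a group stem from separate cultures is stated neither in the labels nor in the methods. The p-values therefore reflect the spread among arrays alone, and part or all of that spread may be technical. Levels are log2 RMA values, where a difference of 1 is a 2-fold change, and they do not compare between genes.

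MEF2C binds AT-rich sites in DNA and acts as an activator or a repressor depending on its partners. It is required in muscle, heart, bone and B cell development, and its rearrangements mark an immature form of T-cell leukemia. Notch receptors are cut upon ligand binding, and the released intracellular part joins RBPJ on DNA to activate target genes that commit progenitors to the T lineage. The 9 members serve unlike functions. ST18 and EPAS1 are transcription factors. MMRN1, ANGPT1 and RAB27B belong to stored or secreted cargo and its release. ANXA1 and LGALS12 bind phospholipids and sugars, CNTNAP4 is a neuronal adhesion protein, and ACSL6 activates fatty acids.

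The labels were checked first. Of 3 probe sets annotated to MEF2C here, 1 rose with dox in the MEF2C line, by 0.79 over 9 against 9 arrays (limma adjusted p = 0.000218). The other 2 fell, with differences of -1.06 (adjusted p = 3.13e-10) and -1.07 (adjusted p = 1.01e-08). In the MEF2C-ICN line the same probe set differed by 0.66 and the others by -2.21 and -2.28. The construct is codon-optimized, and a legend of the study places all MEF2C probe sets except a single one outside the cloned sequence, where they read endogenous MEF2C. It does not give their IDs, and which of those counted here read the construct was not tested. The Notch target DTX1 rose with dox by 2.78 in the MEF2C-ICN line and by 2.31 in the ICN line. The rise was uneven between targets and between lines. Among other Notch targets, HEY1 rose by 2.26 in the MEF2C-ICN line and 4.96 in the ICN line, and HES1 by 1.57 and 0.40. NRARP was not called in either (-0.11 and -0.30). Of 16 Notch target genes, 7 were called higher in each line and none lower, where 5.84% and 6.44% of all genes were called higher. Both ICN lines stood apart from the MEF2C line without dox as well. HES1 then averaged 9.34 in the MEF2C-ICN line and 10.19 in the ICN line, against 5.59 in the MEF2C line in medium. Per array, the mean level was 8.84 to 9.70 over 12 T lineage markers, 4.86 to 5.48 over 6 B lineage markers and 3.79 to 4.65 over 10 myeloid markers. Since probe sets differ in brightness by design, no order is read between these lists. Arrays of a group correlated at 0.990 to 0.998.

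All 9 members were lower on each of the 9 arrays with dox in the MEF2C line than the mean of the arrays without dox in the same culture, which is what the choice fixed. In such bulk RNA, fewer cells expressing a gene and less RNA per cell cannot be told apart. RMA compresses the differences of dim probe sets, so the folds are those of the RMA values. The mean falls over the 3 cultures were 4.88-fold for ST18, 4.26-fold for MMRN1, 3.84-fold for RAB27B, 3.34-fold for LGALS12 and 3.24-fold for CNTNAP4. EPAS1 fell 3.07-fold, ANXA1 2.90-fold, ACSL6 2.79-fold and ANGPT1 1.70-fold. On the log2 scale ACSL6 at -1.48 was the last of the 8 members within the largest falls, and the next genes in order after ACSL6 were HDC at -1.43, ITGAL at -1.42 and FPR2 at -1.38. COL15A1 at -2.24 and DUSP6 at -2.01 also fell as far as members. Over all genes, 3.4% were called higher and 3.79% lower in this contrast (limma, adjusted p under 0.05), and nothing is read from that for the members. Of 205 related genes 35 were called in it, of which 29 were called without each single array as well.

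**Figure D1:**
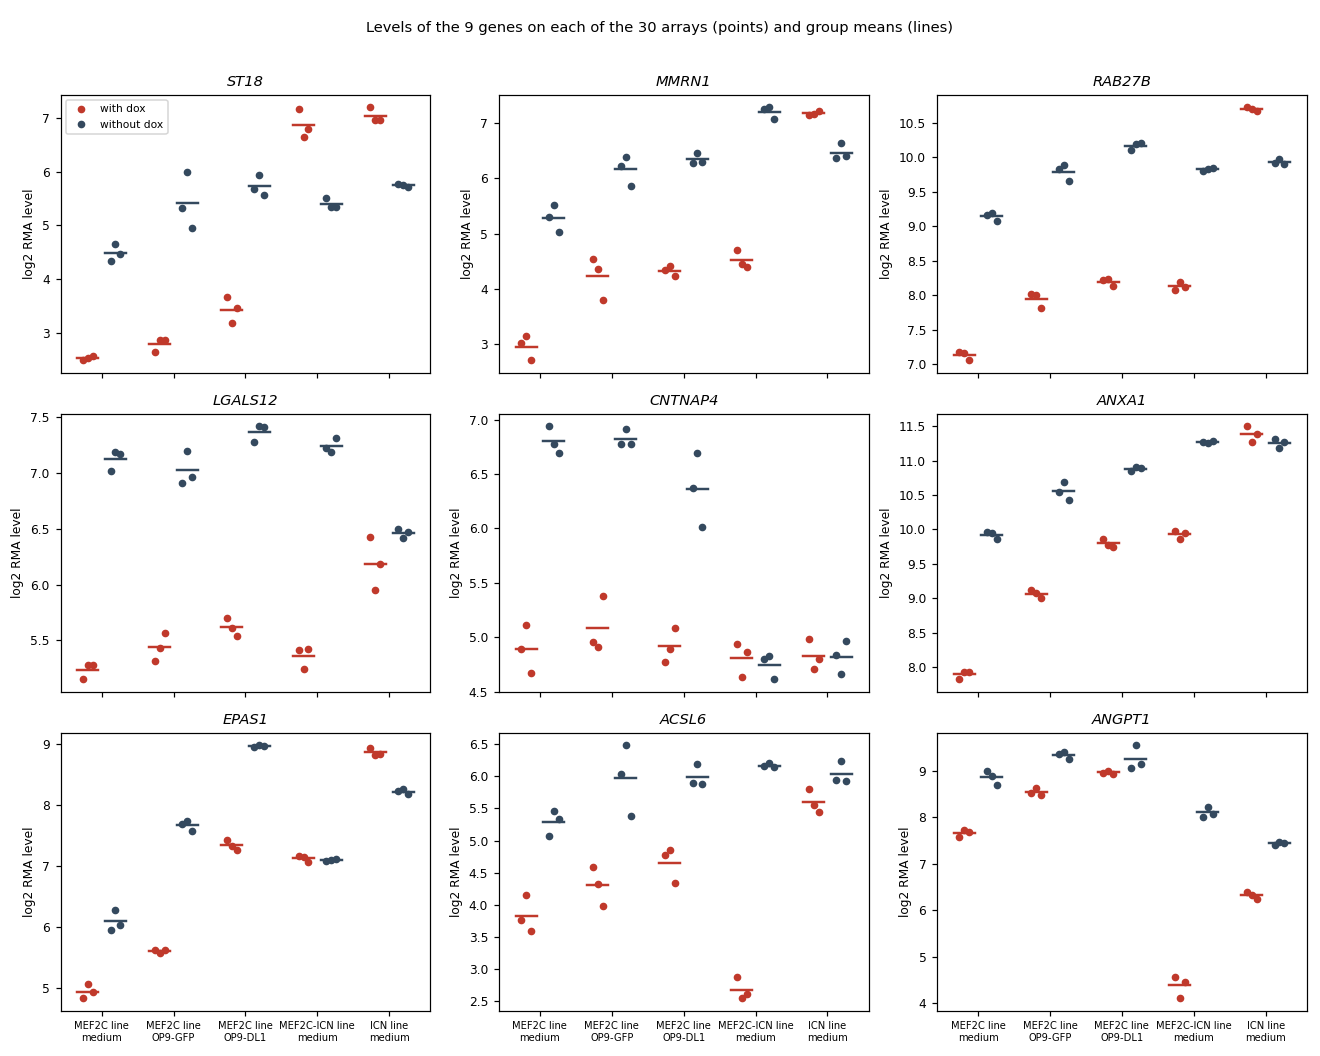
Log2 RMA level (vertical axes, one scale per gene) of the 9 genes on each array, by line and culture, with dox (red) left of without dox (blue). Points are arrays and lines are means of 3. In the MEF2C line all members are lower with dox, whereas ST18 is higher with dox in both ICN lines and CNTNAP4 lies near 4.8 in all 4 groups of those lines.

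The promoters of members with a RefSeq entry were searched because these genes were all lower with dox in the MEF2C line, which the choice fixed. Those of MMRN1, RAB27B, ANXA1 and EPAS1 are printed, for the motif matches in the first 3 and the contrast in base composition of the last. RefSeq windows (GRCh38.p14) matched 6 of the 9 members: MMRN1, RAB27B, CNTNAP4, ANXA1, EPAS1 and ACSL6. The 250 bases before each start were searched on both strands for the MEF2 consensus and for short motifs, which were TGGGAA for RBPJ, TGTGGT for RUNX, AGATAA for GATA factors and TATAAA for the TATA box. The AT-rich motifs can overlap each other. The MEF2 consensus was in none of the windows of these 6 genes, and 2.8% of all 35116 windows hold it. TGGGAA was in 1 of 2 windows of MMRN1 and 1 of 2 of RAB27B, against 20.8% of all windows. AGATAA was in 1 of 7 windows of ACSL6, against 9.17%, and TGTGGT was in none, against 11%. TATAAA was in the window of ANXA1, 31 bases before its start, against 10.7%. Capitals below mark these matches, as TTCCCA where TGGGAA lies on the other strand.
MMRN1, chr4:89894604-89894853, + strand: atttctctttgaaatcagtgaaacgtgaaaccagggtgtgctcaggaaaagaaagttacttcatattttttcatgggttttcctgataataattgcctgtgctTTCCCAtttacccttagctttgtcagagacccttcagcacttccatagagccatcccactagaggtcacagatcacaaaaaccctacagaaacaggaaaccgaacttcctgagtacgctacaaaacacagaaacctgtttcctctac
RAB27B, chr18:54717607-54717856, + strand: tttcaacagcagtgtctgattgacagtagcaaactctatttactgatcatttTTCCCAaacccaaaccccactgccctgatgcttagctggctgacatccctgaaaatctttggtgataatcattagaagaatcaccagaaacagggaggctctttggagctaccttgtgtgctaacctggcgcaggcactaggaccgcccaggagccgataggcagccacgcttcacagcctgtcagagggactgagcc
ANXA1, chr9:73151615-73151864, + strand: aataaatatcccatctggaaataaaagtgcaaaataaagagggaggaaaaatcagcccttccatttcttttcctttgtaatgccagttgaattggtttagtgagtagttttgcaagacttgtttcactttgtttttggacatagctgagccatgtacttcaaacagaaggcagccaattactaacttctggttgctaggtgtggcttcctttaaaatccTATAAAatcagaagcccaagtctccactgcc
EPAS1, chr2:46297157-46297406, + strand: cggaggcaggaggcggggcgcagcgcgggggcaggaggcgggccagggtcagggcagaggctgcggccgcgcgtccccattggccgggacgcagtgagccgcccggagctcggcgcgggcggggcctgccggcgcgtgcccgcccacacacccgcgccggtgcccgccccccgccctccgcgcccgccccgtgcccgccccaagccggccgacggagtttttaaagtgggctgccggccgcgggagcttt
The base composition of these windows differed widely. EPAS1 had 80.8% G and C and 38 CpG pairs, whereas ANXA1 had 38.4% and 0 CpG pairs. The windows printed for MMRN1 and RAB27B had 41.6% and 50.4%, with 3 and 4 CpG pairs. The median over all windows was 58% and 11 CpG pairs. A match is a run of letters and was not tested as a binding site.

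The next question was whether these genes also fell when MEF2C was induced together with ICN, and what ICN did alone. The choice may have drawn on the MEF2C-ICN line for further members as well, since MMRN1 was 18th of all genes there. The counts and the members' p-values that use that line are therefore no independent support. Of the 7 members that could be tested, 4 fell in the MEF2C-ICN line, 1 rose and 2 were not called, where 10.9% of all genes were called lower and 5.84% higher. Their median difference was -1.34, against 0.02 over all genes. With ICN alone, 4 of 9 rose, 1 fell and 4 were not called, at backgrounds of 6.44% higher and 9.42% lower. Their median was 0.13, against -0.03 over all genes. Without dox, HES1 already averaged 9.34 in the MEF2C-ICN line and 10.19 in the ICN line, against 5.59 in the MEF2C line in medium. The dox contrasts of both lines thus start from a raised level of a Notch target. A member not called there was not shown to be unresponsive to Notch. The differences between both inductions were then tested directly: 5 of 7 members were lower with MEF2C and ICN than with ICN alone and none higher, where 6.08% of genes were called lower and 4.06% higher. That test uses the arrays of both lines and shares them with the other 2 comparisons.

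**Figure D2:**
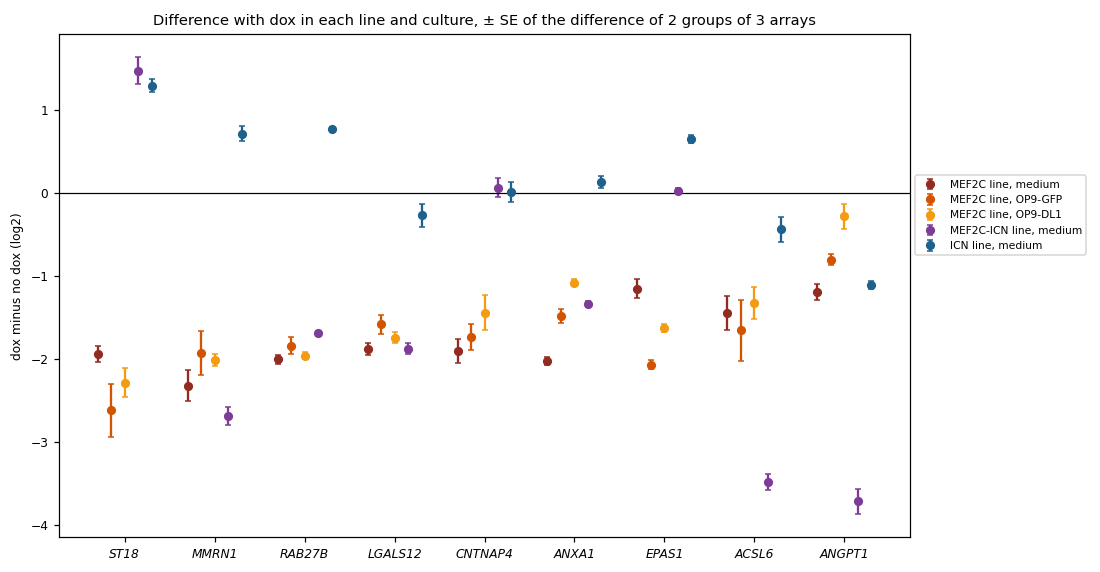
Difference between arrays with and without dox (vertical axis, log2) for the 9 genes in each line and culture. Points are differences between means of 3 arrays and bars are the SE of that difference from the SDs of both groups. ACSL6 (-3.49) and ANGPT1 (-3.72) lie lowest in the MEF2C-ICN line, and ST18 is above 0 in both lines with ICN.

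ST18 is a zinc finger transcription factor of the MYT1 family. In the MEF2C line in medium it stood at 2.50, 2.55 and 2.57 with dox, against 4.33, 4.65 and 4.47 without dox. On stroma it stood at 2.65 to 2.88 with dox and 4.94 to 5.996 without dox in coculture with OP9-GFP, and at 3.19 to 3.66 with dox and 5.57 to 5.94 without dox with OP9-DL1. In none of these cultures did the arrays with and without dox overlap, which the choice of ST18 by its fall there favoured. The direction was the opposite in the lines with ICN. ST18 measured in the MEF2C-ICN line 7.17, 6.65 and 6.80 with dox, against 5.51, 5.35 and 5.35 without dox, a rise of 1.47 ± 0.17 (SE, adjusted p = 3.98e-07). In the ICN line it measured 7.19, 6.96 and 6.95 with dox and 5.78, 5.75 and 5.71 without dox, a rise of 1.29 ± 0.17 (adjusted p = 4.74e-06). These rises did not differ detectably from each other, with a difference of 0.18 (95% interval -0.33 to 0.68, adjusted p = 0.763). The values rest on 1 of 4 probe sets: the other 3 changed by -0.14 to -0.05 with MEF2C over 3 cultures, and the second brightest moved by -0.01 with ICN alone and by 0.51 (adjusted p = 0.0296) in the MEF2C-ICN line.

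Of the family of ST18, MYT1 and MYT1L were measured. MYT1L differed by -0.40 ± 0.11 (SE) with MEF2C over the 3 cultures (adjusted p = 0.0276), and MYT1 was not called (0.08, adjusted p = 0.690). The call of MYT1L was lost without 7 of the 18 arrays, each left out alone, at adjusted p up to 0.0577. MYT1L differed by -3.03 ± 0.13 in the MEF2C-ICN line (adjusted p = 9.16e-16), where it averaged 3.16 ± 0.31 with dox and 6.19 ± 0.15 without dox (SD of 3 arrays). It rose by 0.61 in the ICN line (adjusted p = 0.00127). MYT1L and ST18 thus moved in opposite directions in the MEF2C-ICN line.

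EPAS1 encodes HIF-2α, an oxygen-regulated transcription factor. In the MEF2C line in medium it measured 4.83, 5.06 and 4.92 with dox and 5.95, 6.28 and 6.04 without dox. On OP9-GFP it measured 5.62, 5.57 and 5.61 with dox and 7.70, 7.74 and 7.58 without dox, and on OP9-DL1 7.43, 7.32 and 7.26 with dox and 8.96, 8.98 and 8.97 without dox. The arrays with and without dox did not overlap in any culture, again a description that the choice favoured. No change was detectable in the MEF2C-ICN line: EPAS1 measured 7.16, 7.14 and 7.07 with dox and 7.08, 7.10 and 7.11 without dox, a difference of 0.03 (95% interval -0.13 to 0.18, adjusted p = 0.885). In the ICN line it measured 8.94, 8.82 and 8.85 with dox and 8.23, 8.26 and 8.18 without dox, a rise of 0.65 ± 0.07 (adjusted p = 3.57e-07). The effect of dox differed by -0.62 ± 0.10 between the MEF2C-ICN line and the ICN line (adjusted p = 0.000173). The 2 lines already differed without dox, by -1.12 in the MEF2C-ICN line against the ICN line (adjusted p = 2.79e-11). With the second brightest of its 3 probe sets, which averaged 3.87 with dox and 4.25 without dox in the MEF2C line, the change with ICN was -0.21 and the difference between the effects of dox 0.33, both not called. The difference without dox was then -0.54, also not called (adjusted p = 0.254).

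The other subunits and oxygen sensors of the HIF pathway were not called with MEF2C: limma called 0 of 9 genes, with 2 at an unadjusted p under 0.05 and 1 by the t-test that the study's methods name. HIF1A, the other main oxygen-regulated subunit, fell by 0.20 in the MEF2C-ICN line (adjusted p = 0.0106). Of 12 HIF target genes, 2 fell with MEF2C and none rose. They were NDRG1, a stress-induced gene (-0.37, adjusted p = 0.00121), and ADM, the vasodilator peptide adrenomedullin (-0.26, adjusted p = 0.0435). ADM lost its call without any of 12 of the 18 arrays, each left out alone (adjusted p up to 0.0854), and the list then had 1 to 4 falls. With MEF2C and ICN together 5 of 12 fell, among them ADM (-1.37) and PDK1 (-0.50), a kinase that restrains mitochondrial pyruvate use. In the ICN line 3 of 12 rose, ADM by 0.81, ANKRD37 by 0.51 and PDK1 by 0.29. Of all genes, 3.79% were called lower with MEF2C, 10.9% lower with MEF2C and ICN and 6.44% higher with ICN. The list's median was -0.16 with MEF2C, -0.14 with MEF2C and ICN and 0.06 with ICN, against -0.01, 0.02 and -0.03 over all genes.

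MMRN1 encodes multimerin 1, a carrier protein of factor V stored in platelet alpha-granules. In medium it measured 3.01, 3.15 and 2.71 with dox and 5.29, 5.52 and 5.03 without dox in the MEF2C line. On stroma it stood between 3.80 and 4.53 with dox and between 5.87 and 6.46 without dox. With MEF2C and ICN it measured 4.70, 4.44 and 4.40 with dox and 7.26, 7.28 and 7.08 without dox. The difference was -2.69 ± 0.15, or 6.46-fold lower (adjusted p = 4.81e-13). The choice of MMRN1 may have used that line, where it ranked 18th of all genes, so p-values from it are no independent support. With ICN alone it rose by 0.71 ± 0.15 (adjusted p = 0.00203), with 7.14, 7.17 and 7.21 with dox and 6.36, 6.63 and 6.40 without dox. The difference between both effects was -3.40 ± 0.22 (adjusted p = 1.72e-11). MMRN1 has only 1 probe set on the array. None of the 4 measured genes of the EMILIN and multimerin family was called with MEF2C, with 0 at an unadjusted p under 0.05 and 0 by the methods' t-test.

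RAB27B is a small GTPase that docks secretory granules, in platelets among other cells. It measured 7.18, 7.16 and 7.06 with dox and 9.16, 9.19 and 9.08 without dox in medium. The difference was -2.01 in medium, -1.84 with OP9-GFP and -1.97 with OP9-DL1. The MEF2C-ICN line had 8.08, 8.19 and 8.12 with dox and 9.81, 9.83 and 9.84 without dox, a difference of -1.70 ± 0.07 (adjusted p = 2.02e-16). In the ICN line it measured 10.72, 10.70 and 10.67 with dox and 9.91, 9.97 and 9.90 without dox, a rise of 0.77 ± 0.07 (adjusted p = 2.48e-09). With dox the lines therefore lay on either side of their levels without dox, and the effects differed by -2.46 ± 0.09 (adjusted p = 1.19e-15). Both other probe sets gave the same calls, with differences of -0.74 and -1.25 in the MEF2C-ICN line and of 1.22 and 1.69 in the ICN line.

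RAB27A, the closest relative of RAB27B and a regulator of lytic granule release in lymphocytes, differed by -0.74 ± 0.08 with MEF2C (adjusted p = 1.21e-06). It differed by -1.19 in the MEF2C-ICN line and by -0.39 in the ICN line, both called, so with ICN alone the 2 relatives moved in opposite directions. Of 14 measured genes of the Rab27 and Rab3 release machinery, 2 fell with MEF2C and none rose. The second was UNC13D, which primes granules for fusion (-0.22, adjusted p = 0.0187). With MEF2C and ICN 4 of 14 fell, also EXPH5 (-0.63) and SYTL1 (-0.45), both effectors that bind Rab27. Of all genes, 3.79% were called lower with MEF2C and 10.9% with MEF2C and ICN. The list's median was -0.07 with MEF2C and 0.01 with MEF2C and ICN, against -0.01 and 0.02 over all genes. Of 18 megakaryocyte and platelet granule genes, 3 fell with MEF2C and none rose: SRGN, the granule proteoglycan serglycin (-0.55, adjusted p = 4.48e-06), NFE2 (-0.30, adjusted p = 0.0349) and VWF (-0.28, adjusted p = 0.0234). With 1 of the 18 arrays left out, 1 to 4 of the 18 genes fell, and the call was lost without 10 arrays for NFE2 (adjusted p up to 0.0718) and without 1 for VWF (adjusted p = 0.0504). The median of these 18 was -0.04, against -0.01 over all genes, of which 3.79% were called lower with MEF2C. GFI1B, a transcription factor of megakaryocytes and erythroid cells, was not called with MEF2C (-0.04, adjusted p = 0.907). It was lower with dox in both lines with ICN, by -4.45 in the MEF2C-ICN line and -3.56 in the ICN line.

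ANGPT1 is a secreted ligand of the endothelial receptor TIE2, and is also made by hematopoietic stem cells. In the MEF2C line it measured 7.57, 7.73 and 7.69 with dox and 8.995, 8.89 and 8.70 without dox in medium. The difference was smaller on stroma, at -0.81 with OP9-GFP and -0.28 with OP9-DL1, where the arrays with dox (8.94 to 9.005) lay just under those without dox (9.06 to 9.55). Together with ICN it measured 4.57, 4.11 and 4.46 with dox and 8.01, 8.23 and 8.07 without dox, a difference of -3.72 or 13.2-fold, given without a test. With ICN alone ANGPT1 differed by -1.11 ± 0.11 (adjusted p = 3.11e-08), with 6.40, 6.33 and 6.24 with dox and 7.39, 7.47 and 7.44 without dox. It was the only member called lower with ICN alone by limma over all arrays, whereas LGALS12, described below, was called lower under some other settings. Its second probe set gave -0.87 with MEF2C, -2.77 in the MEF2C-ICN line and -1.28 in the ICN line. Of 7 angiopoietin-like and TIE genes, TIE1 fell with MEF2C (-0.42, adjusted p = 0.0104), and ANGPTL6 rose by 1.75 in the MEF2C-ICN line and by 1.81 in the ICN line.

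ANXA1 encodes annexin A1, a calcium-dependent phospholipid-binding protein and ligand of formyl peptide receptors. It measured 7.83, 7.93 and 7.93 with dox and 9.96, 9.95 and 9.86 without dox in medium. The difference was -2.03 in medium, -1.49 with OP9-GFP and -1.09 with OP9-DL1. The MEF2C-ICN line had 9.97, 9.87 and 9.95 with dox and 11.27, 11.26 and 11.28 without dox, a difference of -1.34 ± 0.07 (adjusted p = 4.46e-14). ICN alone gave 0.13 (95% interval -0.01 to 0.27, adjusted p = 0.267), and the 2 effects differed by -1.47 ± 0.10 (adjusted p = 2.63e-11). The second probe set differed by -1.17 with MEF2C and by -1.30 in the MEF2C-ICN line.

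The receptors of annexin A1 were also lower with MEF2C. FPR2 differed by -1.38 ± 0.16 (adjusted p = 6.22e-06) and FPR1 by -0.51 ± 0.10 (adjusted p = 0.00234). Of 15 measured annexins, formyl peptide receptors and S100 partners, limma called only these 2 lower, and ANXA11 higher by 0.19. In either direction, 9 of the 15 had an unadjusted p under 0.05, and 4 were called by the methods' t-test. With MEF2C and ICN 5 of the 15 fell, among them ANXA2 (-1.44), FPR2 (-1.37), FPR1 (-0.53) and S100A10 (-0.57), the partner of annexin A2. In the ICN line S100A11, a partner of annexin A1, rose by 1.65 and ANXA2 fell by 0.30. Of all genes, 3.79% were called lower with MEF2C and 10.9% with MEF2C and ICN. The list's median was -0.04 with MEF2C, against -0.01 over all genes.

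LGALS12 encodes galectin-12, a sugar-binding protein known from adipocytes and myeloid cells. In the MEF2C line it lay between 5.15 and 5.70 on all 9 arrays with dox and between 6.91 and 7.41 on all 9 without dox. The 2 ranges lay more than their own width apart, on the arrays by whose fall LGALS12 was chosen. The MEF2C-ICN line had 5.41, 5.24 and 5.42 with dox and 7.22, 7.19 and 7.31 without dox, a difference of -1.88 ± 0.10 (adjusted p = 5.12e-14). In the ICN line it measured 6.43, 5.95 and 6.19 with dox and 6.49, 6.41 and 6.47 without dox. That difference of -0.27 was not called (95% interval -0.47 to -0.07, adjusted p = 0.0704). It was called without the first array with dox (-0.39, adjusted p = 0.00722), with dim probe sets left out (adjusted p = 0.0336), after quantile normalization (adjusted p = 0.0441) and with all probe sets averaged per gene (adjusted p = 0.0469). The effects of both inductions differed by -1.61 ± 0.14 (adjusted p = 3.40e-09). LGALS12 has 1 probe set. Of 9 other galectins only LGALS1, galectin-1, was called with MEF2C, at -0.87 ± 0.05 (adjusted p = 7.47e-10). It was also lower in the MEF2C-ICN line (-2.51) and in the ICN line (-0.56).

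CNTNAP4 is a neurexin-related membrane protein of interneuron synapses. It measured 4.89, 5.12 and 4.67 with dox and 6.94, 6.77 and 6.69 without dox in medium, and on stroma 4.77 to 5.38 with dox and 6.02 to 6.92 without dox. In both ICN lines it lay between 4.61 and 4.98 on all arrays with or without dox, within the range of the MEF2C line with dox or just under it (4.67 to 5.38). No change with dox was detectable there: the difference was 0.06 in the MEF2C-ICN line (95% interval -0.24 to 0.36, adjusted p = 0.856) and 0.01 in the ICN line (95% interval -0.29 to 0.31, adjusted p = 0.982). The 3 dimmer probe sets changed by -0.40 to -0.02 with MEF2C. Of 12 relatives, limma called 0 with MEF2C, with 2 at an unadjusted p under 0.05 and 0 by the methods' t-test.

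ACSL6 is a long-chain acyl-CoA synthetase, the first step in the use of fatty acids. It measured 3.76, 4.15 and 3.59 with dox and 5.06, 5.46 and 5.33 without dox in medium, and 3.99 to 4.86 with dox and 5.38 to 6.48 without dox on stroma. With MEF2C and ICN it measured 2.87, 2.55 and 2.61 with dox and 6.15, 6.20 and 6.14 without dox, a difference of -3.49, given without a test. ICN alone gave -0.44, which was not called (95% interval -0.86 to -0.02, adjusted p = 0.184). Its level with dox in the MEF2C-ICN line, 2.68 ± 0.17, was below every other group, the next being the MEF2C line in medium with dox at 3.83 ± 0.28. Of its 4 other probe sets, 2 were lower with MEF2C, by -0.86 and -1.002, and the others differed by -0.10 and -0.04. In the MEF2C-ICN line these 4 differed by -1.34, -2.05, 0.06 and -0.01 in the same order. Of 11 other acyl-CoA synthetases and fatty acid transporters, ACSBG1 fell with MEF2C (-0.63, adjusted p = 0.0217) and ACSL1 rose (0.36, adjusted p = 0.00456). ACSBG1 (-1.20) and ACSL4 (-0.76) were also lower in the MEF2C-ICN line.

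**Figure D3:**
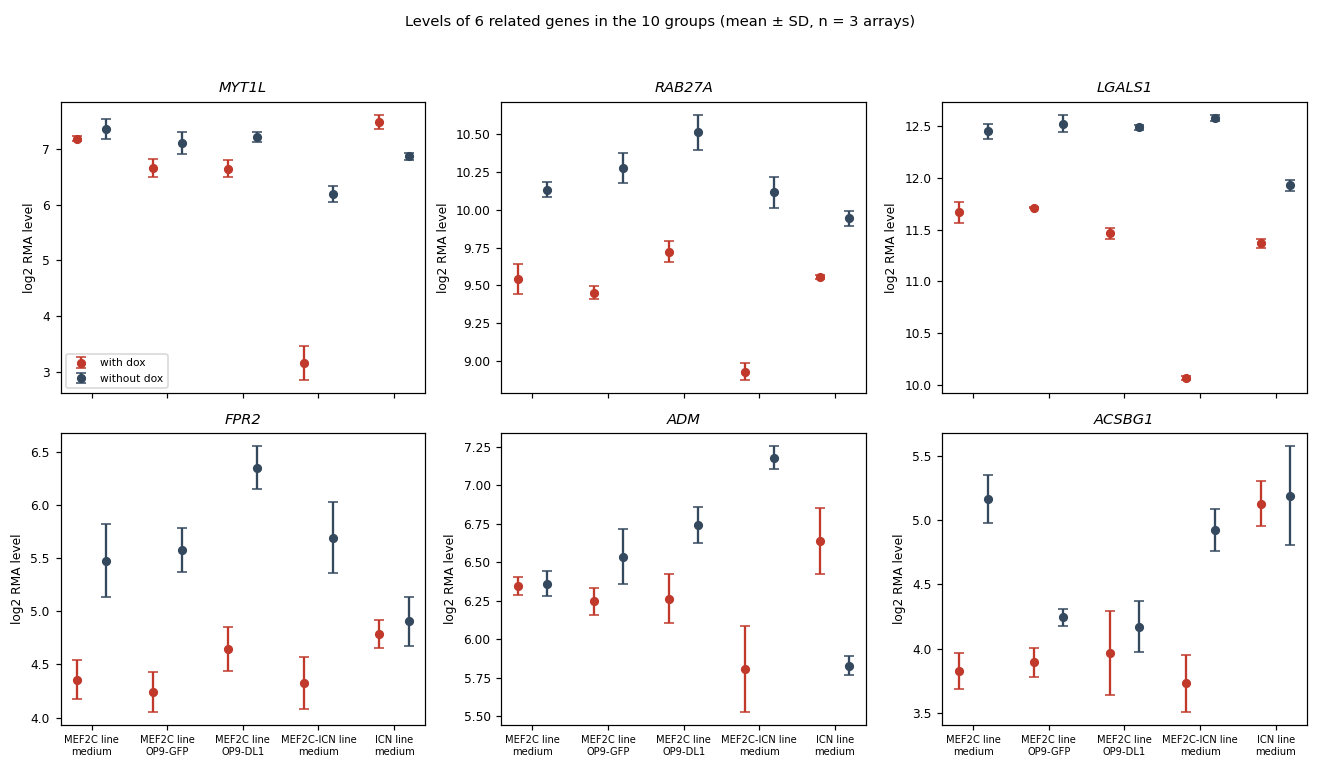
Log2 RMA level (vertical axes) of 6 relatives or targets of the members in the 10 groups, mean ± SD of 3 arrays, with dox (red) left of without dox (blue). RAB27A, LGALS1 and FPR2 are lower with dox in all 3 cultures of the MEF2C line, and MYT1L, at 3.16, is lowest in the MEF2C-ICN line with dox.

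The cultures were compared within the MEF2C line on contrasts that the choice did not use, although on arrays that it did. Without dox, 7 of 9 members were higher on OP9-GFP than in medium and none was lower, where 10.8% of genes were called higher and 11.5% lower. The median member differed by 0.65, against -0.01 over all genes. EPAS1 was higher by 1.58 ± 0.07 (adjusted p = 7.40e-14), ST18 by 0.94 ± 0.17 (adjusted p = 0.000268) and MMRN1 by 0.88 ± 0.15 (adjusted p = 0.000150). RAB27B (0.65), ANXA1 (0.63) and ANGPT1 (0.49) were also higher. LGALS12 (-0.10, 95% interval -0.30 to 0.10) and CNTNAP4 (0.02, 95% interval -0.28 to 0.32) were not called. With the second brightest probe set the differences were 0.25 for EPAS1 (adjusted p = 0.593), 0.02 for ST18 (adjusted p = 0.958) and 0.46 for ANGPT1 (adjusted p = 0.0660), none of them called. ACSL6 was called at 0.68 (adjusted p = 0.0191). Its call was lost without array 1 of medium without dox (0.57, adjusted p = 0.102), array 1 of OP9-GFP (0.65, adjusted p = 0.0600) or array 2 of OP9-GFP (0.42, adjusted p = 0.167). The 3 arrays of OP9-GFP without dox measured 6.03, 6.48 and 5.38.

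With the Notch ligand on the stroma, 3 of 9 members were higher on OP9-DL1 than on OP9-GFP without dox, where 1.02% of genes were called higher and 0.612% lower. EPAS1 was higher by a further 1.30 ± 0.07 (adjusted p = 1.67e-11), RAB27B by 0.38 ± 0.07 (adjusted p = 0.00156) and ANXA1 by 0.33 ± 0.07 (adjusted p = 0.00978). With their second brightest probe sets EPAS1 (0.86, adjusted p = 0.0959), RAB27B (0.44, adjusted p = 0.180) and ANXA1 (0.44, adjusted p = 0.0578) were not called, and RAB27B was not called either with only the groups compared in the fit (adjusted p = 0.361). The call of ANXA1 was lost without array 3 of OP9-GFP (0.27, adjusted p = 0.0680) or array 2 of OP9-DL1 (0.32, adjusted p = 0.0561), while without array 2 of OP9-GFP 5 members were called, ST18 (0.59, adjusted p = 0.0478) and LGALS12 (0.43, adjusted p = 0.0347) being added. CNTNAP4 was called lower only without array 2 of OP9-DL1 (-0.63, adjusted p = 0.0425, against -0.46 and 0.147 with it). With dox, 2 of 9 were higher on OP9-DL1, EPAS1 by 1.74 ± 0.07 (adjusted p = 2.01e-14) and ANXA1 by 0.73 ± 0.07 (adjusted p = 1.37e-07), where 0.92% of genes were called higher and 0.48% lower. The second brightest probe set of EPAS1 gave 0.22 there and was not called (adjusted p = 0.889), while that of ANXA1 was (0.64, adjusted p = 0.00281). The comparison with OP9-DL1 and the one with medium share the arrays of OP9-GFP without dox. Among 16 Notch target genes, 6 rose on OP9-DL1 without dox, such as HES1 by 1.89 and HEY1 by 0.74. HES1 also rose by 1.86 on OP9-GFP against medium.

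**Figure D4:**
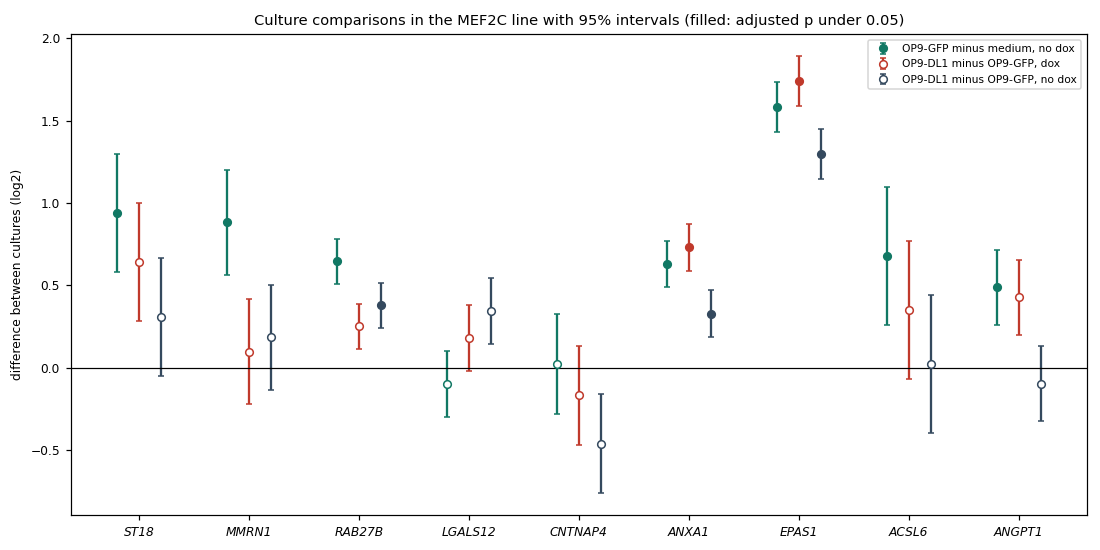
Differences between cultures of the MEF2C line (vertical axis, log2) for the 9 genes. Points are differences from the limma fit over all 30 arrays, bars are 95% intervals, and filled points are called. EPAS1 has the largest differences in all 3 comparisons, from 1.30 to 1.74.

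Stromal genes were examined beside these values, since neither the labels nor the methods state whether OP9 cells were removed before RNA extraction. The 28 stromal markers averaged between 4.81 and 5.06 per array on OP9-GFP without dox, against 4.80 to 4.91 in medium without dox. Of them 4 were called higher and 5 lower, where 10.8% of all genes were called higher and 11.5% lower. Among the higher were LOX (2.02), COL1A2 (0.80) and COL6A3 (0.72). COL6A3 also differed by -1.71 with MEF2C over the 3 cultures, NT5E by 1.94, COL5A2 by -0.48 and SPARC by -0.37, all called. These genes are thus no markers of stroma alone here. On OP9-DL1 without dox the 28 markers averaged 4.78 to 4.87. Against OP9-GFP limma called 0 of 28, with 4 at an unadjusted p under 0.05 and 0 by the methods' t-test. Their part in the members' differences was not tested.

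Whether the fall with MEF2C depended on the culture was tested for each member. On OP9-GFP against medium, the effect of dox on EPAS1 differed by -0.92 ± 0.10 (adjusted p = 2.23e-05), with -2.07 on OP9-GFP and -1.16 in medium. The effect on ANXA1 differed by 0.54 ± 0.10 (adjusted p = 0.00615), with -1.49 on OP9-GFP and -2.03 in medium. The other 7 were not called, where 0.101% of genes were called higher and 0.389% lower. The call of EPAS1 was lost with its second brightest probe set (-0.13) and with the mean of its probe sets (-0.38), and that of ANXA1 likewise (-0.0017 and 0.27). On OP9-DL1 against OP9-GFP, limma called 0 of 9 members, with 3 at an unadjusted p under 0.05, ANXA1 (0.40), EPAS1 (0.44) and ANGPT1 (0.52). There 0.0556% of genes were called higher and 0.0759% lower.

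Without dox the 2 lines with ICN differed in 4 of 9 members. MMRN1 (0.74, adjusted p = 0.00228), LGALS12 (0.78, adjusted p = 2.93e-06) and ANGPT1 (0.67, adjusted p = 0.000165) were higher in the MEF2C-ICN line, and EPAS1 was lower, as given above. At this comparison 3.73% of genes were called higher and 5.15% lower. The dox effects of the 2 lines thus start from unequal levels for these 4 genes.

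Markers of other cell types were read beside the members. Of 10 myeloid markers, 2 fell with MEF2C and none rose, LYZ (-0.97, adjusted p = 3.82e-06) and CEBPE (-0.34, adjusted p = 0.0129). Their summed level, as a mean per array, was 4.20 to 4.46 with dox and 4.49 to 4.65 without dox in the MEF2C line, a shift in the direction of the members. Limma called 0 of 6 B lineage markers, with 0 at an unadjusted p under 0.05 and 0 by the methods' t-test. Of 12 T lineage markers, 8 fell and 1 rose with MEF2C, such as CD5 (-0.69), CD3D (-0.64) and GATA3 (0.57), and with ICN alone 7 rose and 2 fell. Of 24 genes of stem cells and primitive leukemia, 2 rose and 1 fell with MEF2C, 3 rose and 9 fell with MEF2C and ICN, and 1 rose and 9 fell with ICN. The shares called over all genes were 3.4% higher and 3.79% lower with MEF2C. They were 5.84% and 10.9% with MEF2C and ICN, and 6.44% and 9.42% with ICN. The part of these marker genes in the members' values was not tested.

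The order of the 10 groups differed between members. For ST18, RAB27B and ANXA1 the ICN line with dox was highest, for EPAS1 and LGALS12 the MEF2C line on OP9-DL1 without dox, for MMRN1 and ACSL6 the MEF2C-ICN line without dox, and for CNTNAP4 and ANGPT1 the MEF2C line on OP9-GFP without dox. The MEF2C line in medium with dox was lowest for ST18, MMRN1, RAB27B, LGALS12, ANXA1 and EPAS1. Many neighbours in these orders differed by less than the sum of their SDs: ST18 in the ICN line with dox (7.04 ± 0.14) and the MEF2C-ICN line with dox (6.87 ± 0.26), for example, or CNTNAP4 in its 7 lowest groups. Group means spanned from 2.07 for CNTNAP4 to 4.97 for ANGPT1.

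Likeness over the 10 group means was measured as the root mean square difference after centring each gene. MMRN1 and RAB27B were nearest to each other among members at 0.39, and RAB27B was also nearest to ANXA1 at 0.39. Among genes that are no members, the 2 nearest were DUSP6 (0.29) and SLC2A3 (0.37) to RAB27B, and COL15A1 (0.48) and DUSP6 (0.50) to MMRN1. DUSP6 is a phosphatase of ERK and SLC2A3 a glucose transporter. SLC2A3 (0.42) and CLDN5 (0.43) were nearest to ANXA1. FPR2 (0.27) and ITGAL (0.28) were nearest to LGALS12, STARD13 (0.40) and PRAM1 (0.45) to CNTNAP4, and MAF (0.56) and STAP1 (0.58) to EPAS1. For ACSL6 they were WT1 (0.45) and MEF2C (0.45), MEF2C through its brightest probe set, which is 1 of the 2 that fell with dox and not the one that rose, for ANGPT1 IL18RAP (0.48) and CBFA2T3 (0.58), and for ST18 TNFSF4 (0.65) and GIMAP1 (0.71). These are descriptions over the same 10 groups, 6 of which belong to the MEF2C line that chose the members.

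**Figure D5:**
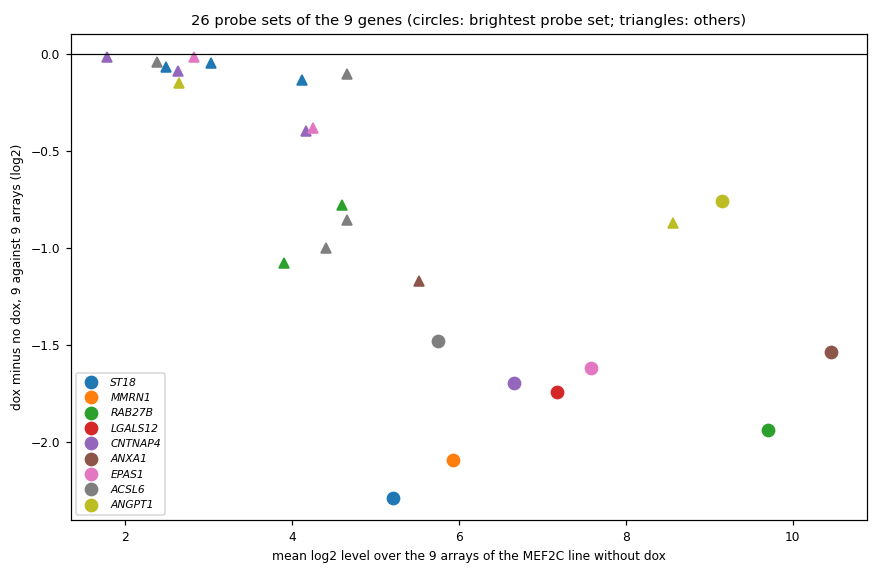
Mean difference with MEF2C over 3 cultures (vertical axis, log2) against mean level without dox (horizontal axis, log2) for the 26 probe sets of the 9 genes. Circles are the brightest probe set of each gene and triangles the others. Apart from the second probe set of ANGPT1 (-0.87) and that of ANXA1 (-1.17), the other probe sets lie below a level of 5.

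Each gene was represented by its brightest probe set, and 7 members have others. Over the 3 cultures the 17 other probe sets all had negative differences, from -1.17 for ANXA1 and -1.08 for a probe set of RAB27B to -0.02 for probe sets of CNTNAP4 and EPAS1. When all probe sets of a gene were averaged, the differences were -0.64 for ST18, -0.67 for EPAS1 and -0.55 for CNTNAP4.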

How the data were processed

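RNA of LOUCY lines was hybridised to Affymetrix HG U133 Plus 2.0 arrays. The deposited values are log2 expression that the authors made by RMA, with affy 1.64.0 in R 3.6.3 per the labels. RMA corrects background, normalizes by quantiles and summarises probes, which compresses the differences of dim probe sets. The array number limits precision. Of 54675 probe sets, 62 controls were left out. The platform annotation gave 1 symbol to 41091 probe sets, several to 1801 and none listed to 11721; 41037 matched RefSeq by gene identifier. A single probe set stood for a gene, the one brightest on average across the 30 arrays, with the others as a check.

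Differences were fitted with limma 3.58.1 in R 4.3.3 over all 10 groups and 54613 probe sets, with Benjamini-Hochberg adjustment and calls at an adjusted p under 0.05. The MEF2C contrast of 9 against 9 arrays, as in the study, was tested only for related genes. The members and all lists were chosen with earlier results of these data known. The members' choice may also have used the MEF2C-ICN line, so ACSL6 and ANGPT1 were left untested there and 7 instead of 9 members counted. Related genes were named where called, at most 4 per list and comparison by size, with the 2 nearest genes of each member and the 3 genes next to the members' range. Alternatives covered a filter on probe set means under 5, quantile normalization, median centring, the prior, the arrays fitted, replicate blocks, other probe sets, the study's criteria (log2 beyond 0.6, q under 0.1), the methods' t-test and leaving out arrays. The fit was tested on simulated data.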

Additional observations from a re-analysis of the deposited data

Results flagged for a closer look

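In 5 of 7 members tested, the effect of dox differed between the MEF2C-ICN line and the ICN line by a direct test of that difference in limma. Of all genes, 6.08% were called lower and 4.06% higher in that test. The choice of members may have drawn on the MEF2C-ICN line, so that test is no independent support. MMRN1, LGALS12 and EPAS1 already differed between these lines without dox. The differences were -3.40 for MMRN1, -2.46 for RAB27B, -1.61 for LGALS12, -1.47 for ANXA1 and -0.62 for EPAS1, so the effect was lower with MEF2C and ICN in each. The value of EPAS1 rests on its brightest probe set. In the MEF2C line the effect of dox also differed between coculture with OP9-GFP and medium, by -0.92 for EPAS1 and by 0.54 for ANXA1. These opposite directions rest on the brightest probe sets. With the second brightest the values were -0.13 for EPAS1 and -0.0017 for ANXA1, neither called. Groups of 3 arrays are too small to look for single outlying arrays.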

How the results depend on the processing

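Beyond the choice of probe set, 9 of 1081 values of single members under other settings lost a call and 21 gained one. The direction turned in 18 of them, none called on either side. Numbers below are counts of members called, then of genes called, against the values reported. Leaving out probe sets with a mean under 5, which drops ST18, gave 4 members for OP9-DL1 against OP9-GFP with dox (2 reported) and 2 members and 55 genes for the effect of MEF2C on OP9-DL1 against OP9-GFP (0 and 26). Quantile normalization gave 1 and 43 for that effect, and a trended and robust prior gave 1 and 68, with 5 members for OP9-DL1 against OP9-GFP with dox and 159 genes for the effect on OP9-GFP against medium (97). Fitting only the groups compared, with fewer arrays behind the spread, gave 1656 genes for ICN (3135), 1375 for OP9-GFP against medium (4396), 1 member and 44 genes for OP9-DL1 against OP9-GFP without dox (3 and 322), 141 genes with dox (277), 3 genes for the first effect, 1 member and 23 genes for the second (2 and 97) and 1087 genes between the ICN lines (1756). ACSL6 then lost its call on OP9-GFP against medium (adjusted p = 0.142) and ANXA1 that for the second effect (adjusted p = 0.235). The study's criteria gave 790 genes for ICN, 1061 for MEF2C and ICN (3319), 1002 for their difference (2004), 730 for OP9-GFP against medium, 1 member and 119 genes for OP9-DL1 without dox, 90 genes with dox, 1 member for the second effect and 479 genes between the ICN lines. The methods' t-test with Benjamini-Hochberg adjustment gave 1172 genes for ICN. The cause of these shifts was not tested.

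With the second brightest probe set, 17 of 59 values turned direction, 5 of them called with one of the 2 probe sets: ST18 (-0.0059) and EPAS1 (-0.21) with ICN, EPAS1 in the difference of both inductions (0.33), ACSL6 on OP9-GFP against medium (-0.083) and ANXA1 in the second effect (-0.0017). Members called were then 3 for ICN (5), 3 for OP9-GFP against medium (7), 0 for OP9-DL1 without dox, 1 with dox and 0 for the second effect. The mean of a gene's probe sets gave 0 for the second effect, values of 0.10 for EPAS1 with ICN and -0.01 in the difference of both inductions, neither called, and a median of members of -0.70 with MEF2C (-1.70).

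For MEF2C over 3 cultures, 35 of 205 related genes and 1423 genes in all were called. Culture as a covariate gave 60 and 2915, the fit over all 30 arrays 64 and 3362, and the study's criteria 12 and 284. Leaving out all arrays of a replicate number, which leaves 12 of 18 arrays, gave 16 to 22 and 563 to 710. Leaving out a single array, an alternative chosen after seeing the data, gave 31 to 37 and 1250 to 1432. Among the related genes named, MYT1L, ADM, NFE2 and VWF lost calls in it. For the comparisons of members it gave 2 to 5 members and 205 to 420 genes for OP9-DL1 against OP9-GFP without dox, 163 to 190 genes with dox, and 0 to 1 members and 16 to 36 genes for the first effect, where ANXA1 was called without array 3 of OP9-GFP without dox (0.46, adjusted p = 0.0475).

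Replicate numbers occur in all groups but share only a number: same-numbered deviations correlated at -0.36 to 0.33, and 29 of 135 pairs were over 0.1. With the replicate block 5 members were called for ICN, 33 related genes and 1308 genes for MEF2C, and RAB27B became called for OP9-DL1 against OP9-GFP with dox (3 members, adjusted p = 0.0311), with no other call of a member changed.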
